A study of Rattus norvegicus with 6 samples.

Results

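The genes described here are 5 GTPases that interferons switch on, the guanylate-binding protein genes Gbp2, Gbp4 and Gbp5 and the immunity-related GTPase genes Igtp and Irgm. They were taken by symbol from the table of gene counts, in which all 5 are listed among 17771 genes, and all 5 passed the filter on low counts that left 14213 genes for testing. They were selected on their levels by library and log2 fold changes in the resveratrol comparison itself, so their differences between the groups are a description, and where the 5 are counted among the genes that a tool called, the count is no evidence about them. In corneas of resveratrol-treated rats all 5 had a lower mean than in saline controls, by 0.26 to 0.89 on the log2 scale, and in all 5 the libraries of the groups overlapped. Which control library was high differed from gene to gene.

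Guanylate-binding proteins and immunity-related GTPases are among the most strongly interferon-induced proteins of rodents. They assemble on the membranes of vacuoles that hold bacteria or parasites, break these membranes, and pass the exposed contents to autophagy and to the inflammasomes, the complexes that activate caspases and release interleukin 1. Interferon gamma induces them through the kinases Jak1 and Jak2 and a DNA element called GAS, and interferon regulatory factors act on the same genes through a second element, the ISRE. In a corneal graft, T cells and NK cells of the host are the known makers of interferon gamma, and graft and host cells alike can respond to it.

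RNA was sequenced in bulk from corneas of Wistar rats that carried a cornea from SD donors, so donor and host differed in strain in every library of both groups. The resveratrol group (3 libraries) received resveratrol, a plant polyphenol, by daily intraperitoneal injection until day 7, and the control group (3 libraries) received saline by the same route and schedule. The labels give neither the dose, the age and sex of the rats, whether a library is 1 animal or a pool, nor whether host rim was dissected with the graft. Nor do they say that each library is a separate animal, and p-values here therefore rest on the spread between samples, which may be technical. Total gene counts were 36904770 to 37301669 in resveratrol libraries and 35068936 to 37460756 in control libraries. The tissue label was checked with Krt12, the keratin of corneal epithelium, which stood at 35071 ± 2934 CPM (counts scaled to library size) in resveratrol and 34169 ± 1076 CPM in control (SD, n = 3 each), and with Kera, the proteoglycan of corneal stroma, at 187 ± 60.7 CPM in resveratrol and 214 ± 60.3 CPM in control. Library 1 of each group has a description ending in Sep and the rest have one ending in Oct, endings that the labels leave unexplained.

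The stretches of promoter that hold the interferon elements of the 5 genes are shown first, together with that of Irgm2, a close relative beside Igtp. All are from the RefSeq assembly GRCr8, whereas the submitters' processing notes name the build mRatBN7.2. Each is 130 bases long and written 5′ to 3′ on the strand of the gene. Capitals mark matches on either strand to the ISRE (GAAA, any 2 bases, GAAA) or the GAS (TTCNNNGAA). On the plus strand of chromosome 2 lie Gbp2 (chr2:234005597-234005726), Gbp4 (chr2:233978356-233978485) and Gbp5 (chr2:233910869-233910998). On chromosome 10 lie Igtp (chr10:42874917-42875046) and Irgm2 (chr10:42889840-42889969) on the plus strand and Irgm (chr10:33742579-33742708) on the minus strand.
Gbp2: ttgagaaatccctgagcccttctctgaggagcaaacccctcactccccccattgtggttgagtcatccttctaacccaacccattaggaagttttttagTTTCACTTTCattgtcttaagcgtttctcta
Gbp4: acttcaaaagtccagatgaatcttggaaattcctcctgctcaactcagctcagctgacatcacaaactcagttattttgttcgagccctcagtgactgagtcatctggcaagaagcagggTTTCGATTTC
Gbp5: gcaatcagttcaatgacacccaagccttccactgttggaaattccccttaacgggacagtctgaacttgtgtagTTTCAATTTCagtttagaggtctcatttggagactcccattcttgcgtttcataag
Igtp: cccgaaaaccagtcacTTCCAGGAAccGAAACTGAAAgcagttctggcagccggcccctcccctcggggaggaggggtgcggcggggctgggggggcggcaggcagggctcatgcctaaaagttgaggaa
Irgm2: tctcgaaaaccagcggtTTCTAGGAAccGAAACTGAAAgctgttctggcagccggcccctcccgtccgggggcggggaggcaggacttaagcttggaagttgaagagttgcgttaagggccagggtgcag
Irgm: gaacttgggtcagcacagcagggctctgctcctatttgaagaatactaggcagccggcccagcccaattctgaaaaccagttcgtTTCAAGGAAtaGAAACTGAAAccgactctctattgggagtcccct

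Each of the 5 genes held an ISRE in the window from 250 bases before to 50 bases after its RefSeq start, an element found in 3.92% of 33469 such windows. The 3 Gbp genes held it on the reverse strand, as TTTCACTTTC at -31 to -22 in Gbp2, as TTTCGATTTC at -10 to -1 in Gbp4 and as TTTCAATTTC at -56 to -47 in Gbp5, counted in bases before the start. None of these 3 windows held a GAS, which occurs in 8.87% of windows. Igtp held a GAS, TTCCAGGAA, at -114 to -106 and an ISRE at -103 to -94. Irgm held a GAS, TTCAAGGAA, at -45 to -37 and an ISRE at -34 to -25. In Igtp, Irgm and Irgm2 the pair stood in the same order, 2 bases apart and without overlap, and the ISRE had the same letters, GAAACTGAAA. Windows with both elements made up 0.514% of all windows. A shorter search term, the ISRE core GAAANNGAA, lies inside every ISRE and was found in 9.71% of windows. Of other relatives, Ifi47 held 2 GAS matches and no ISRE, and Gbp6 held neither, though an ISRE core lay in its window. Gbp1, the neighbour of Gbp2, has 2 windows, and 1 of them held 3 ISRE matches, a pair of them overlapping, while the other held none, and neither held a GAS. Over the whole window Igtp and Irgm2 were 67.3% identical, and the other pairs among these 6 genes were 45.4% to 52.7% identical. These matches are letters in a fixed window and do not show which sites are bound in the cornea.

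**Figure D1:**
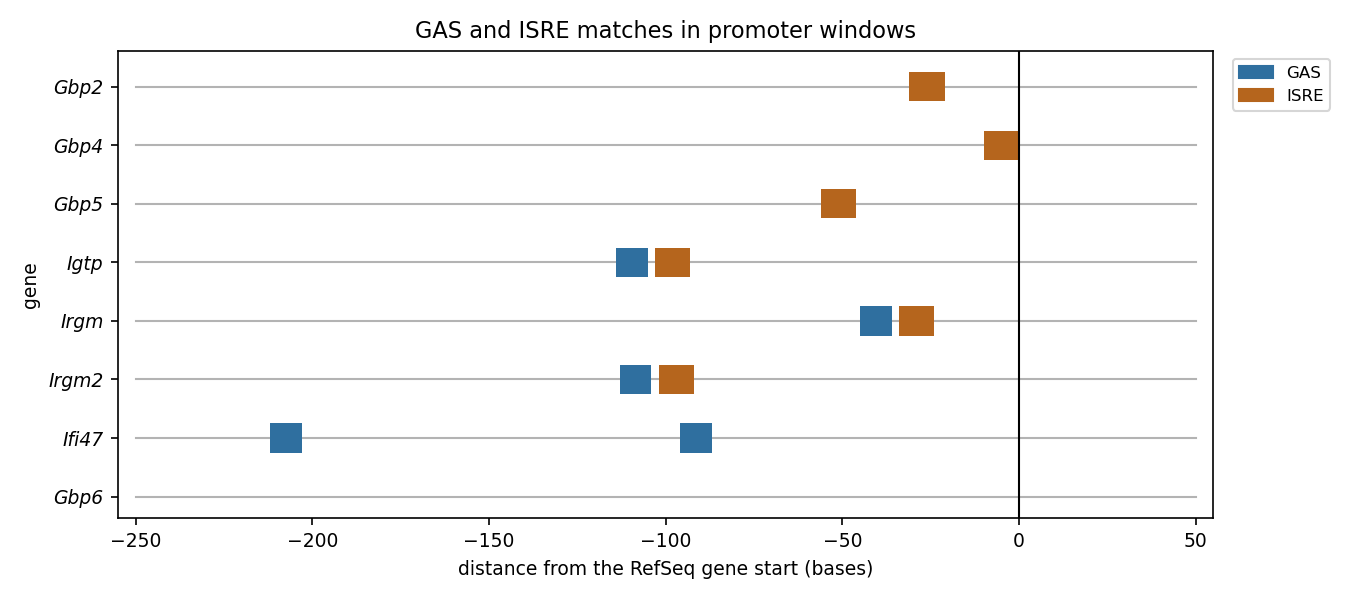
Positions of GAS (blue) and ISRE (orange) matches in the promoter windows of the 5 GTPase genes and of 3 relatives, with distance from the RefSeq gene start in bases on the horizontal axis. Gbp2, Gbp4 and Gbp5 have an ISRE alone close to the start, while Igtp, Irgm and Irgm2 have a GAS directly before an ISRE.

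In the RefSeq table Gbp5, Gbp7, Gbp4, Gbp2 and Gbp1 follow each other as protein-coding neighbours on chromosome 2, and Igtp lies between Igtpl1 and Irgm2 on chromosome 10. Irgm lies elsewhere on chromosome 10 and overlaps 1 pseudogene. Relatives in such runs share sequence, and the sources used here give neither the strand setting nor how reads that match several genes were counted, so the level of each of these genes is uncertain by the reads it could share with a relative.

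Gbp2 was by far the most abundant of the 5 when levels were compared per length, in FPKM, the authors' fragment counts scaled to transcript length and library size. It averaged 541 ± 126 FPKM in resveratrol and 770 ± 383 FPKM in control, and it ranked 88 to 161 among the 17771 listed genes in resveratrol libraries and 33 to 127 in control libraries. Gbp2 made up 86.8% to 89.7% of the summed FPKM of the 5 genes in resveratrol libraries and 84.2% to 93.0% in control libraries. Irgm came next, at 33.0 ± 4.11 FPKM in resveratrol and 41.0 ± 4.58 FPKM in control. Gbp4 followed at 23.1 ± 4.87 FPKM in resveratrol and 27.3 ± 6.07 FPKM in control. Igtp was at 11.99 ± 2.83 FPKM in resveratrol and 15.2 ± 7.15 FPKM in control, and Gbp5 was lowest at 4.71 ± 1.10 FPKM in resveratrol and 8.67 ± 4.17 FPKM in control. In resveratrol libraries no 2 neighbours in this order overlapped in range. In control libraries the ranges of Gbp4 and Igtp overlapped, as did those of Igtp and Gbp5, so these neighbours did not differ beyond their spread. Control 1 had Igtp above Gbp4, and control 3 had Gbp5 slightly above Igtp.

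Levels of a single gene across libraries are given below in CPM scaled with TMM factors, and differences are log2 fold changes, resveratrol minus control, ± moderated standard error. Gbp2 coats pathogen vacuoles in mouse cells and is anchored in membranes by a prenyl group. Its level was 1018, 1274 and 1563 CPM in resveratrol libraries 1 to 3 and 1322, 1327 and 2916 CPM in control libraries 1 to 3. Control 3 stood alone, at 2.21 times the lowest control library, while controls 1 and 2 lay between resveratrol 2 and resveratrol 3. The means were 1285 ± 273 CPM in resveratrol and 1855 ± 919 CPM in control, a log2 fold change of -0.53 ± 0.32. The groups overlapped, and without control 3 the difference was -0.04.

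Gbp4, which in mouse binds Irf7 and restrains the type I interferon response, showed the same library at the top on a lower level. It was at 51.7, 75.7 and 71.9 CPM in resveratrol libraries and 67.2, 71.5 and 99.5 CPM in control libraries. Resveratrol 1 was the lowest and control 3 the highest, and the other libraries of both groups lay within 67.2 to 75.7 CPM. Its log2 fold change of -0.26 ± 0.19 became -0.06 without control 3 and -0.10 without resveratrol 1. The mean was 66.4 ± 12.9 CPM in resveratrol and 79.4 ± 17.5 CPM in control.

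Gbp5, which promotes assembly of the Nlrp3 inflammasome in mouse macrophages, had the lowest level and the largest difference of the 5. It was at 12.3, 16.3 and 10.4 CPM in resveratrol libraries and 31.3, 10.7 and 30.4 CPM in control libraries. Controls 1 and 3 stood above every resveratrol library, but control 2 lay within the resveratrol range. The means were 13.0 ± 3.04 CPM in resveratrol, 53.8% of the 24.1 ± 11.6 CPM in control. The log2 fold change was -0.89 ± 0.41 with all libraries, and between -1.25 (without control 2) and -0.66 (without control 1) when 1 library was left out. Counting error is small beside this spread, since even Gbp5 had 394 to 608 counts in resveratrol libraries and 394 to 1133 counts in control libraries.

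Igtp, known in mouse as Irgm3, is a GTPase of the endoplasmic reticulum that keeps effector members of its family inactive on the cell's own membranes. It was at 19.5, 25.4 and 30.3 CPM in resveratrol libraries and 49.7, 24.6 and 22.2 CPM in control libraries. Only control 1 was above the highest resveratrol library, and controls 2 and 3 lay inside the resveratrol range. The means were 25.1 ± 5.40 CPM in resveratrol and 32.2 ± 15.2 CPM in control, with a log2 fold change of -0.36 ± 0.31. Without control 1 the sign turned, to 0.10, so the lower mean of Igtp in resveratrol rested on that library.

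Irgm is the counterpart of mouse Irgm1, a regulator of the family on Golgi and lysosomal membranes that is linked to autophagy and to the survival of T cells. It was at 65.1, 81.3 and 71.1 CPM in resveratrol libraries and 100.5, 92.6 and 80.0 CPM in control libraries. The groups met in a narrow zone, since resveratrol 2 lay just above control 3 and the other libraries kept to their sides. The means were 72.5 ± 8.18 CPM in resveratrol and 91.0 ± 10.3 CPM in control, with a log2 fold change of -0.33 ± 0.12. It was the steadiest of the 5, its highest library being 1.25 times its lowest in resveratrol and 1.26 times in control, and with 1 library left out its difference ranged from -0.42 (without resveratrol 2) to -0.25 (without control 1).

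**Figure D2:**
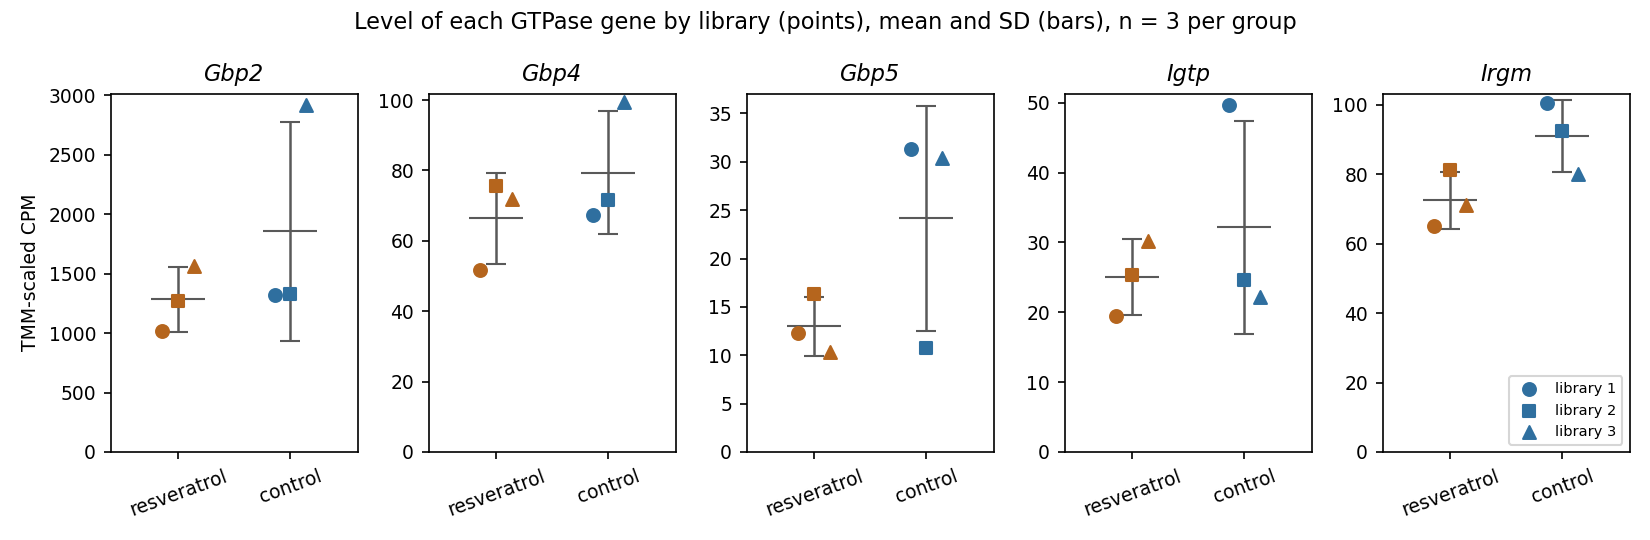
TMM-scaled CPM of each GTPase gene by library (points, with marker shape for libraries 1 to 3), group mean (long bar) and SD (whiskers), with resveratrol left of control in each panel. The groups overlap in all 5 panels, and the library that lifts the control mean is control 3 for Gbp2 and Gbp4, controls 1 and 3 for Gbp5 and control 1 for Igtp.

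All 5 genes thus had a lower mean in resveratrol, with a median log2 fold change of -0.36, against -0.01 over all genes tested, of which 51.2% had a negative value. In none of the 5 were the groups apart, whereas 14.4% of all genes tested had every resveratrol library below every control library and 12.2% had every one above. By edgeR's quasi-likelihood test with Benjamini-Hochberg adjustment 0 of the 5 passed an adjusted p of 0.05, as did 0 of 14213 genes (0%), and the smallest adjusted p of any gene was 0.1002. Before adjustment, 2782 genes (19.6%) had an edgeR p under 0.05, of which 1667 were lower (11.7%) and 1115 higher (7.84%), and 1 of them was among the 5. DESeq2 called 1007 of 14666 genes (6.87%), with 680 lower (4.64%) and 327 higher (2.23%), and limma voom called 0 (0%), and both called 0 of the 5. With 1 library left out, the share of all genes that DESeq2 called was 3.73%, 4.51% and 5.8% without resveratrol 1, 2 and 3 and 4.49%, 2.74% and 7.15% without control 1, 2 and 3. Of the 5 it called 1, Gbp5, without control 2, and 0 in the other cases, and edgeR called 0 of the 5 without control 3, where it called 0.146% of all genes. No exact permutation test was made, since with 3 libraries against 3 its smallest p is 0.1.

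The 5 genes did not move through the libraries together. The nearest pair was Gbp2 and Gbp4, whose log2 CPM values, each centred on the gene's mean over the 6 libraries, differed by a root mean square of 0.25. Next came Gbp4 and Irgm at 0.29 and Igtp and Irgm at 0.33, and the farthest pair was Gbp2 and Igtp at 0.67. Control 3 had 0.98 log2 units more Gbp2 than the mean library and 0.29 units less Igtp, while control 1 had 0.87 units more Igtp and 0.16 units less Gbp2. In the ratio of their FPKM values, Gbp2 to Igtp, the resveratrol libraries stood close together at 45.9, 44.1 and 45.4, and the control libraries were at 23.4, 47.5 and 115. Control 2 was thus near the resveratrol libraries, control 1 below and control 3 above them. Resveratrol 1 was lowest of all libraries in Gbp2, Gbp4, Igtp and Irgm, and Gbp5 was lowest in resveratrol 3.

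**Figure D3:**
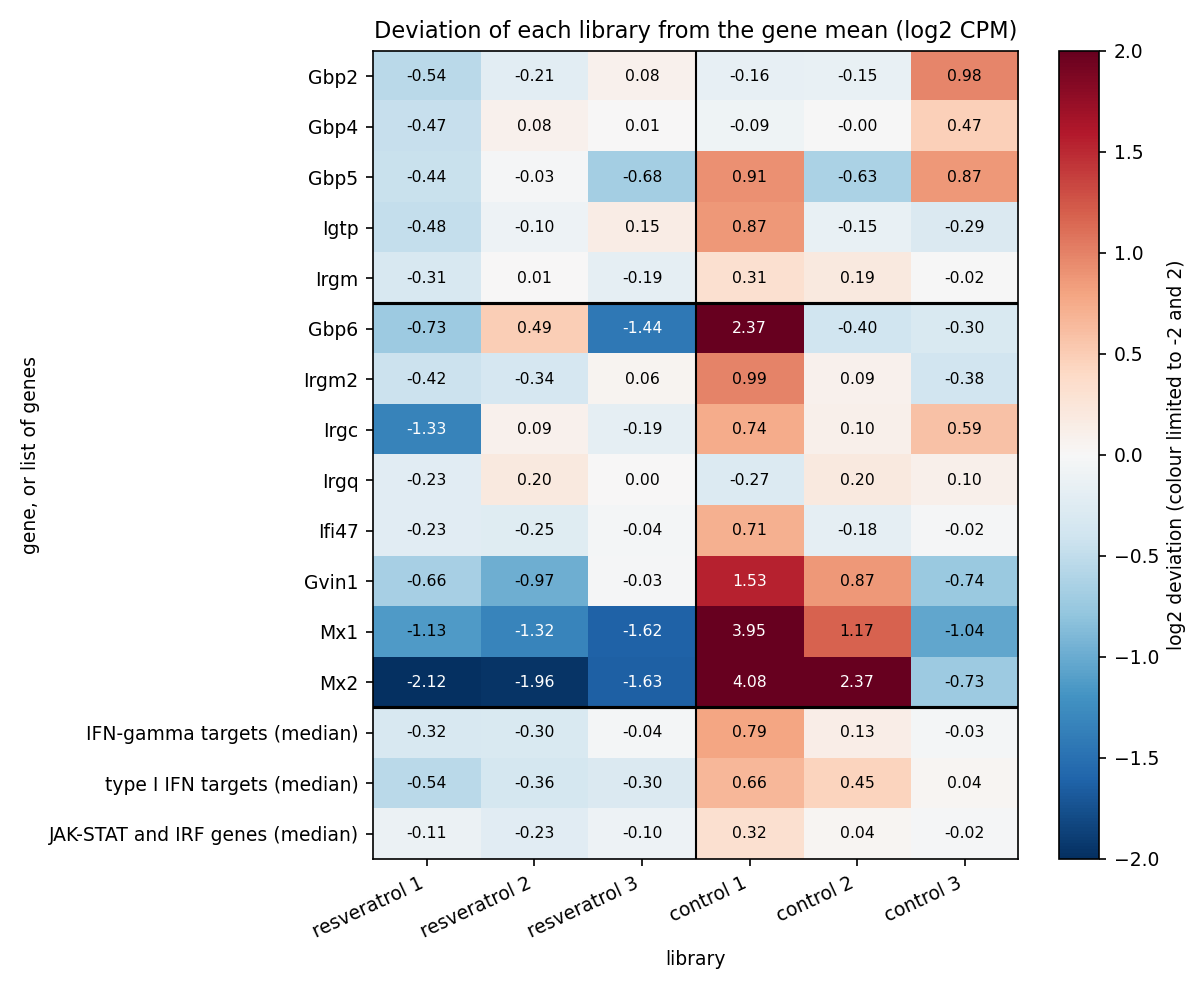
Deviation of each library from the gene's mean over the 6 libraries, in log2 CPM (red above, blue below, colour limited to -2 and 2), for the 5 GTPase genes, 8 relatives and the medians of 3 gene lists, with resveratrol libraries left of control libraries. Control 3 is highest for Gbp2 (0.98) and Gbp4 (0.47) but near or below 0 for Igtp, for most relatives and for the interferon lists, where control 1 is highest.

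Leaving out 1 library at a time showed which differences rested on a single library. Irgm and Gbp5 stayed below 0 in every such fit. Gbp2 and Gbp4 came close to 0 without control 3, and Igtp changed sign without control 1. In the Oct libraries alone, 2 per group, the log2 fold changes were -0.58 for Gbp2, -0.21 for Gbp4, -0.62 for Gbp5, 0.25 for Igtp and -0.18 for Irgm, so that Igtp was again the exception. The Sep libraries, 1 per group, allow no fit, and library 1 of resveratrol was below library 1 of control for all 5 genes in the values above.

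**Figure D4:**
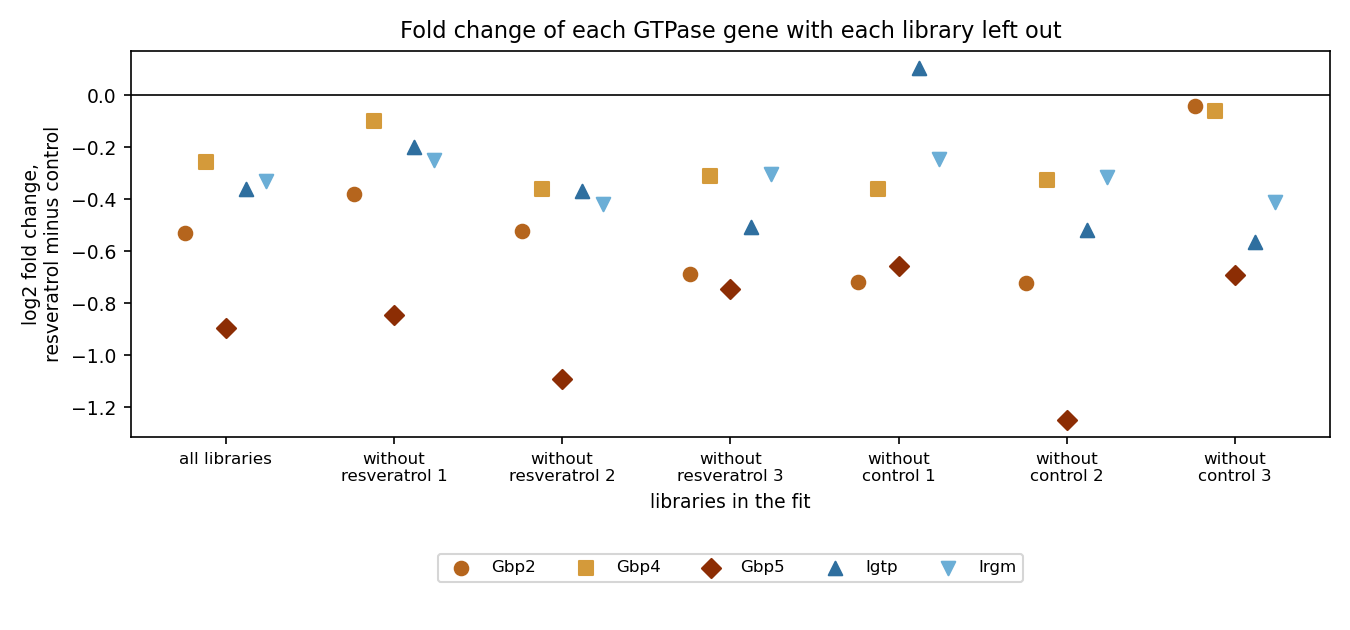
Log2 fold change (resveratrol minus control, edgeR) of each GTPase gene with all libraries and with each library left out. Igtp is at 0.10 without control 1, and Gbp2 (-0.04) and Gbp4 (-0.06) are close to 0 without control 3, while Gbp5 and Irgm stay below 0 throughout.

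Next come 8 other tested genes of GTPase families with interferon-inducible members, Irgc and Irgq among them. All 8 had a lower mean in resveratrol, and the median log2 fold change was -1.17. Of the 8, 7 were highest in control 1, as 21.1% of all genes were. EdgeR called 0 of the 8, with 2 lower at an unadjusted p under 0.05 beside 11.7% of all genes. DESeq2 called 2, beside 4.64% of all genes, the antiviral dynamin-like GTPases Mx1 and Mx2. Mx1 was at 3.82, 3.36 and 2.71 CPM in resveratrol libraries and 131, 19.1 and 4.07 CPM in control libraries, with control 1 far above control 2 and control 3 near the resveratrol libraries. With all libraries the log2 fold change of Mx1 was -3.96 ± 1.07, and without control 1 it was -1.81. The log2 fold change of Mx2 was -4.85 ± 1.05 with all libraries and -3.45 without control 1. Irgm2 was highest in control 1, as Igtp was, at 44.0, 46.7 and 61.4 CPM in resveratrol libraries and 117, 62.7 and 45.5 CPM in control libraries, and the log2 fold change of Irgm2 was -0.56 ± 0.32 with all libraries and -0.09 without control 1. Ifi47, an effector GTPase of the same family as Igtp, was at 69.9 ± 5.67 CPM in resveratrol and 91.9 ± 32.2 CPM in control, where control 1 alone, at 129 CPM, was far above the rest. The log2 fold change of Ifi47 was -0.40 ± 0.22 with all libraries and -0.07 without control 1. Gbp6 was near the lower limit of measurement, at 0.627 ± 0.467 CPM in resveratrol and 1.88 ± 2.18 CPM in control, and the log2 fold change of Gbp6 was -1.57 ± 0.83 with all libraries and 0.02 without control 1. The log2 fold change of Gvin1, a very large interferon-inducible GTPase, was -1.37 ± 0.58 with all libraries and -0.81 without control 1. The log2 fold change of Irgc, known from testis in mouse and here under 1 CPM, was -0.96 ± 0.48 with all libraries and -0.59 without resveratrol 1. Irgq differed by -0.02 ± 0.15. Gbp1 had too few counts to be tested, 4, 2 and 1 in resveratrol libraries and 37, 7 and 3 in control libraries, and Gbp3 had 2 counts in all, both in control 2.

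Upstream of the GTPases, receptor genes had close means in the groups, and several regulatory factors had lower means in resveratrol. Ifng, the ligand, had 2 counts over all 6 libraries, 1 in resveratrol 3 and 1 in control 1, and was not tested. Of 6 tested ligand and receptor genes, 1 had a lower mean and the median log2 fold change was 0.02. Ifngr1 was at 317 ± 59.4 CPM in resveratrol and 271 ± 7.35 CPM in control, and Ifngr2 at 66.4 ± 2.09 CPM in resveratrol and 66.3 ± 2.77 CPM in control. Jak1 differed by 0.03 ± 0.078 and Jak2 by 0.32 ± 0.21. Irf1, a factor that binds the ISRE, differed by -0.18 ± 0.13 and the inhibitor Socs1 by 0.03 ± 0.19. Irf8 differed by -0.84 ± 0.23. Nlrc5, the activator of MHC class I genes, was at 7.05, 9.64 and 15.2 CPM in resveratrol libraries and 24.2, 7.56 and 8.23 CPM in control libraries. The log2 fold change of Nlrc5 was -0.32 ± 0.47 with all libraries and turned to 0.43 without control 1. Of 16 tested JAK-STAT and interferon regulatory factor genes, 13 had a lower mean (median -0.28) and DESeq2 called 6, all lower, beside 4.64% of all genes. Of 13 inhibitors 6 had a lower mean (median 0.03) and DESeq2 called 1, Usp18 (-2.05 ± 0.33). Irf7, the main inducer of interferon alpha genes, was at 57.5 ± 7.05 CPM in resveratrol and 137 ± 45.5 CPM in control. EdgeR called 0 in these lists, and at an unadjusted p under 0.05 it gave 0 of the ligand and receptor genes, 6 lower and 1 higher of the JAK-STAT and regulatory factor genes, and 2 lower and 2 higher of the inhibitors, beside 11.7% of all genes lower and 7.84% higher.

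Of 25 tested target genes of interferon gamma outside the GTPases, 23 had a lower mean, with a median of -0.49, and of 36 targets of type I interferon 36 had a lower mean, with a median of -0.78. DESeq2 called 6 and 22 of them, all lower, beside 4.64% of all genes. Apart from Cxcl11, the 6 were genes of MHC class II, namely Cd74, RT1-Da, RT1-Db1, RT1-Ba and RT1-DMb. The class II genes RT1-Bb (-1.59 ± 0.46, groups apart) and RT1-DMa (-0.23 ± 0.20, groups overlapping) were not called. B2m, Tap1, Tap2, Psmb8, Psmb9 and Psme2, which serve MHC class I, were not called, and in each of them the groups overlapped. Psmb10 (-0.36 ± 0.14), Psme1 (-0.26 ± 0.074) and Tapbp (-0.26 ± 0.13) serve MHC class I too and were not called either. In each of these, however, every resveratrol library was below every control library. EdgeR called 0, and at an unadjusted p under 0.05 it gave 14 lower and 1 higher of the 25 and 27 lower of the 36, beside 11.7% and 7.84% of all genes lower and higher. Among the interferon gamma targets, B2m, the shared chain of MHC class I, was at 525 ± 124 CPM in resveratrol and 821 ± 297 CPM in control, and RT1-Db1, a chain of rat MHC class II, differed by -1.44 ± 0.29. Among the type I targets, Ifi27 was at 248 ± 7.59 CPM in resveratrol and 346 ± 112 CPM in control, and Rtp4, a chaperone of membrane receptors, differed by -2.49 ± 0.36. The groups did not overlap in 11 of the 25 and 28 of the 36, beside 14.4% of all genes, and in 0 of the 5 GTPases. The largest library was control 1 for 21 of the 25 and for 25 of the 36. In control 3 the median deviation from the gene mean was -0.03 for the interferon gamma targets and 0.04 for the type I targets, while the 5 GTPases had a median of 0.47 there. In controls 1 and 2 the medians were 0.79 and 0.13 for the interferon gamma targets, 0.66 and 0.45 for the type I targets, and 0.31 and -0.15 for the 5 GTPases.

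**Figure D5:**
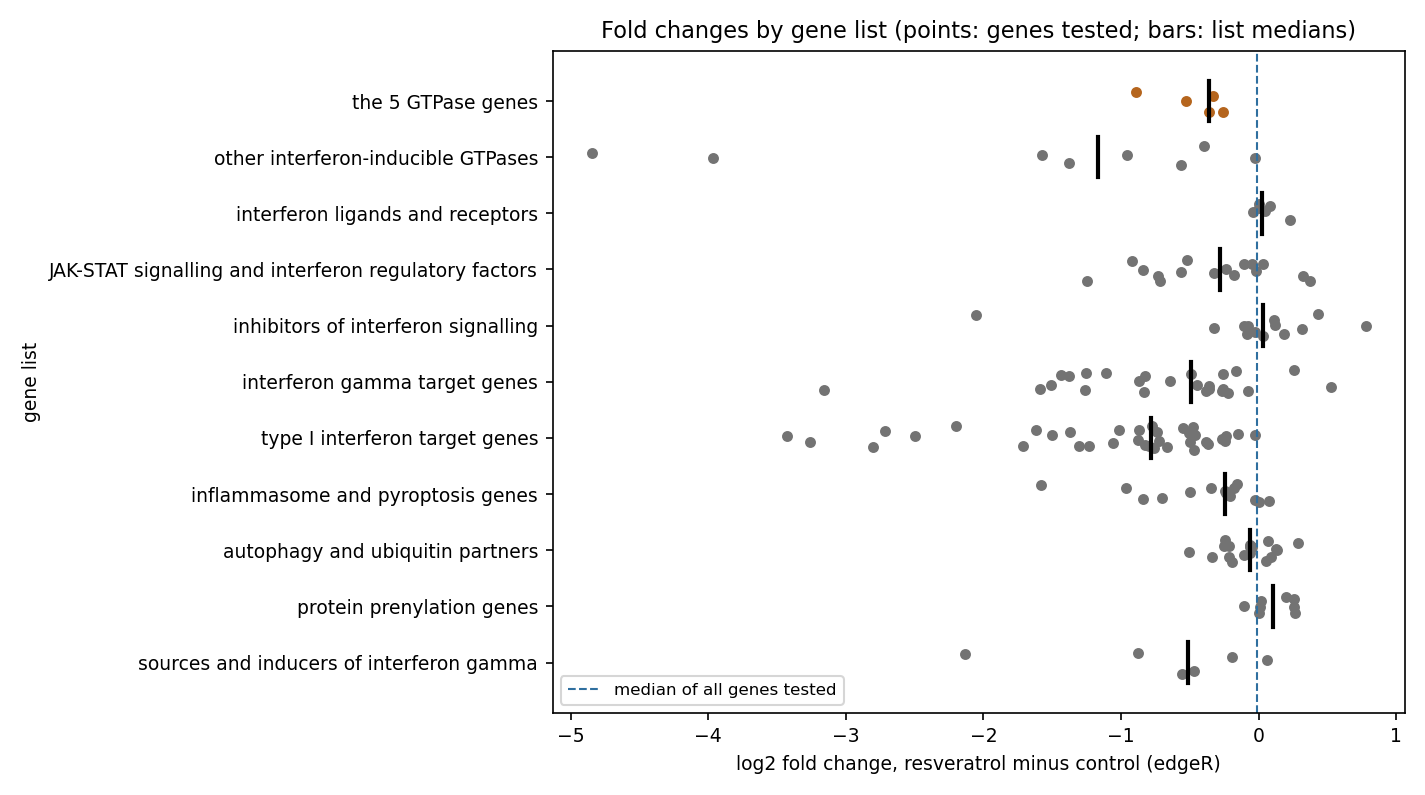
Log2 fold changes (resveratrol minus control, edgeR) of the tested genes in each list (points) with the list median (black bar) and the median of all genes tested (dashed line). The 5 GTPase genes lie between -0.89 and -0.26, and the type I interferon targets reach from -3.43 to -0.03.

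Genes of immune cells differed in level between the same libraries, and in bulk tissue fewer cells of a type and less RNA per cell cannot be told apart. All 11 tested T cell markers of 13 listed had a lower mean in resveratrol. The 13 summed to 19.2 to 31.0 CPM in resveratrol and 34.6 to 70.9 CPM in control. Cd4 alone, at 13.1 to 20.1 CPM in resveratrol and 20.9 to 41.0 CPM in control, made up most of this sum. Cd3e was low, at 0.417 ± 0.240 CPM in resveratrol and 1.58 ± 1.02 CPM in control. Of 13 macrophage markers 11 had a lower mean, with a sum of 408 to 607 CPM in resveratrol and 555 to 1047 CPM in control. All 10 tested dendritic cell markers were lower in mean, with a sum of 11.9 to 19.0 CPM in resveratrol and 26.1 to 41.1 CPM in control. Markers of NK and cytotoxic cells summed to 0.956 to 3.21 CPM in resveratrol and 2.01 to 6.24 CPM in control, and Klrd1, Gzmb, Gzma and Prf1 were at 0 in at least 1 library. Neutrophil markers summed to 169 to 208 CPM in resveratrol and 227 to 594 CPM in control, and blood vessel markers to 384 to 479 CPM in resveratrol and 564 to 826 CPM in control. In the T cell, macrophage, dendritic cell and vessel lists control 1 was highest and control 3 lowest of the control libraries. That is the order of Igtp and Irgm among the controls, and in Gbp2 and Gbp4 control 3 was the highest instead. Corneal epithelial markers summed to 84459 to 98839 CPM in resveratrol and 85562 to 94920 CPM in control. Markers of keratocytes, the stromal cells, had a lower mean in 7 of 7 tested genes. They summed to 7317 to 9981 CPM in resveratrol and 10327 to 14797 CPM in control, without overlap. Control 1 was again highest and control 3 lowest of the controls. The largest part of this sum was Col1a1, at 2693 to 4540 CPM in resveratrol and 5030 to 9242 CPM in control. In that list Col1a1 (-0.97 ± 0.27), Col5a1 (-0.90 ± 0.26) and Thy1 (-0.69 ± 0.16), named after their values were seen, were lower without overlap and called by DESeq2. Over all genes 14.4% were lower without overlap and 4.64% were called lower by DESeq2. Kera (-0.19 ± 0.27), Lum, Dcn and Ogn overlapped. Corneal endothelial markers summed to 841 to 1415 CPM in resveratrol and 824 to 1022 CPM in control. The part of these cell types in the levels of the 5 GTPases was not tested.

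Genes whose library pattern was most like that of a member were looked for among all tested genes with a mean of at least 1 CPM, by the root mean square difference of centred log2 CPM over the 6 libraries. For Igtp the nearest were Mxd3 (0.090), Tap1 (0.097), a subunit of the peptide transporter for MHC class I, and Slfn13 (0.11), where the median gene was at 0.47. Tap1 had its highest level in control 1, at 126 CPM, and 54.3 to 73.2 CPM in resveratrol libraries. For Irgm the nearest were Zcchc24 (0.040), Man1c1 (0.041) and Cd48 (0.043), a surface receptor of leukocytes, with the median gene at 0.28. For Gbp4 they were Micu3 (0.062), Ctsb (0.065), which encodes the lysosomal protease cathepsin B, and Jdp2 (0.078), with the median gene at 0.34. For Gbp2 they were Fhad1 (0.17), Vsnl1 (0.19) and Noct (0.22), with the median gene at 0.51, all highest in control 3. For Gbp5 they were Eya1 (0.24), Gucy1a2 (0.29) and Misp (0.29), with the median gene at 0.68, so Gbp5 and Gbp2 had no neighbour as close as those of the other 3 genes. These distances describe 6 libraries and share the scaling of each library.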

How the data were processed

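Per the labels' protocols, corneal RNA came from a fibrous tissue kit and was read as 150 bp pairs. The authors deposited raw counts for 17771 genes, which are whole and unscaled, and FPKM values for the same list. Named in the submitters' processing notes, without their roles, are DESeq2, R 3.2.0 and mRatBN7.2. The sources used here do not give the aligner, counter, annotation or strand setting. Columns were assigned by name, and each library's counts and FPKM were checked against each other.

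From the deposited counts, genes were filtered with filterByExpr (14213 left; those left out held 0.0237% of the counts), given TMM factors and tested in edgeR 4.0.16 (quasi-likelihood, resveratrol against control, no covariate, Benjamini-Hochberg, threshold 0.05) in R 4.3.3. Standard errors come from limma 3.58.1 with a trend on log2 CPM (prior count 2) and stand beside edgeR's fold change. DESeq2 1.42.0 and limma voom were alternatives. FPKM was used to compare genes, and on the log2(FPKM + 1) and log2(FPKM + 0.1) scales in limma as further alternatives. Other alternatives were other scaling factors and filters, a replicate block, a covariate for the Sep or Oct ending, a fit of the Oct libraries alone, and leaving out each library. DESeq2 without each library was added after seeing the data. The scripts were tested on simulated data.

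The 5 genes, the gene lists and the tests were chosen with earlier results of these data known. Named beside the 5 genes were the tested relatives, a fixed set of pathway genes, of each other list the 2 genes with the highest FPKM and the 2 with the smallest p, and for each of the 5 the 3 genes of most similar pattern. Library pairs within a group differed by 31.4 to 56.6 in chi-square per degree of freedom, so none was counted as a repeat. Promoters were matched by symbol for 5 of 5 genes in RefSeq GRCr8 and searched with Python 3.11.15. No protein sequences were used here. Some genes that the rule names are not reported here.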

Additional observations from a re-analysis of the deposited data

How the results depend on the processing

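EdgeR called 0 of 14213 genes and DESeq2 1007 of 14666. With 1 library left out, the number of genes tested changed as well. EdgeR then called 0 to 21 genes (1 without resveratrol 2, 21 of 14408 without control 3). DESeq2 called from 390 of 14219 without control 2 to 1041 of 14568 without control 3. With the other scalings and filters, limma voom, limma on FPKM, the Sep or Oct covariate, the Oct libraries alone or a threshold of 0.1 the count was 0. The replicate block also gave 0 genes and a median log2 fold change of the 5 GTPases of -0.33. Same-numbered libraries deviated with correlations of -0.0225 to -0.00442, and differently numbered ones with -0.00624 to 0.0173. No pairing by number was thus seen over all genes tested. With 3 libraries per group these values cannot tell whether same-numbered libraries share more than a name, and library 1 of each group shares the Sep ending. EdgeR called 0 of the 5 GTPases in every fit, and DESeq2 0 to 1. Their median was negative in all 18 alternatives, -0.52 to -0.21, and each gene's value was negative in all of them except Igtp without control 1 and in the Oct libraries alone. DESeq2 called 2 of the 8 other GTPases, 6 of the 16 JAK-STAT and interferon regulatory factor genes and 1 of the 13 inhibitors. It called 6 of the 25 interferon gamma targets, 22 of the 36 type I targets and 1 of the 14 inflammasome genes. It also called 1 of the 18 autophagy genes and 1 of the 6 genes of interferon gamma sources. All were lower, beside 4.64% of all genes, and the single calls among inhibitors, inflammasome and autophagy genes lie near that share. In these lists edgeR called 0. Leaving out 1 library, edgeR called 0 to 1 of the other GTPases, of the JAK-STAT genes and of the inhibitors and 0 to 11 of the type I targets. In each case most were called without control 3, where edgeR called 0.146% of all genes. Of the values of 56 named genes under alternatives, 970 stayed within 1 SD of the value given and 35 moved further. This measure is loose and does not show that a difference is stable. Without control 3, Gbp2 went from -0.53 to -0.04 and Gbp4 from -0.26 to -0.06, and both counted as within 1 SD.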

Other observations

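Genes of the processes in which these GTPases are known to act were looked at as lists. Of 14 inflammasome and pyroptosis genes 12 had a lower mean in resveratrol (median -0.24 on the log2 scale), and in 5 the groups were apart, beside 14.4% of all genes. Gsdmd, which forms the pore of pyroptosis, was at 13.2 ± 1.27 CPM in resveratrol and 18.7 ± 1.57 CPM in control (SD, n = 3 each), a log2 fold change of -0.50 ± 0.12. Pycard, the adaptor of inflammasomes, was at 62.3 ± 3.42 CPM in resveratrol and 74.0 ± 3.47 CPM in control. Of 18 autophagy and ubiquitin genes 12 had a lower mean (median -0.06), with the cargo receptor Sqstm1 at 143 ± 9.19 CPM in resveratrol and 180 ± 16.6 CPM in control. Of 8 genes of protein prenylation, the lipid modification that anchors Gbp2 and Gbp5 in membranes, 6 had a higher mean in resveratrol (median 0.11) and 3 were higher without overlap, beside 12.2% of all genes. Among these, Rabggtb, a subunit of the enzyme that prenylates Rab proteins, was at 34.0 ± 1.19 CPM in resveratrol and 28.3 ± 1.26 CPM in control. EdgeR called 0 genes in these 3 lists, with 6 lower, 4 lower and 1 higher, and 1 higher at an unadjusted p under 0.05, in that order, beside 11.7% of all genes lower and 7.84% higher. DESeq2 called Gsdmd and Sqstm1, both lower, beside 4.64% of all genes. Of 6 tested genes of interferon gamma sources and inducers 5 had a lower mean (median -0.51), and Il12b, a subunit of interleukin 12, was at 0.650 ± 0.234 CPM in resveratrol and 2.86 ± 1.62 CPM in control. DESeq2 called Il12b, and edgeR called 0 of the 6, with 2 lower at an unadjusted p under 0.05, beside the same shares.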
